A study of Mus musculus with 6 samples.

Results

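The genes of central carbon metabolism were examined in muscle stem cells (MuSCs) of control mice and of mice with a conditional deletion of Taf4. They comprise 41 genes, chosen by symbol from the 22081 genes of the table: 2 glucose transporters, 11 genes of upper glycolysis, 6 of lower glycolysis, 2 lactate dehydrogenases, 5 genes of the pyruvate dehydrogenase complex and its kinases, 4 enzymes of the pentose phosphate pathway and 11 enzymes of the tricarboxylic acid (TCA) cycle with their cytosolic counterparts. All 41 were found, and 40 were abundant enough to be tested. MuSCs are the resident stem cells of skeletal muscle, which lie quiescent beneath the basal lamina of the myofibre. Freshly isolated cells were sorted from limb and trunk muscle of adult C57BL/6 mice of both sexes after depletion of cells carrying SCA1, CD45 or CD31, by Integrin-alpha7 or a Pax7-zsGreen reporter. RNA-seq was performed on 3 control libraries, labelled WT, and 3 libraries labelled Taf4a-KO, named Taf4asKO here. Taf4asKO mice carried Pax7-CreERT, which is active after tamoxifen in cells that express Pax7, and 2 floxed alleles of Taf4 (formerly Taf4a), the gene of a subunit of the general transcription factor TFIID. Both groups were homozygous for the floxed allele. The controls were littermates with or without the Cre allele, and the labels do not say which of these a library came from. The study's description names tamoxifen treatment for Taf4asKO and does not say whether controls received it. Whether a library held 1 animal or a pool is not given in the sources used here, so p-values measure the spread between these libraries.

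Glycolysis splits glucose into pyruvate and yields ATP without oxygen. Pyruvate is then reduced to lactate, which regenerates NAD+ for glycolysis, or is oxidized by the pyruvate dehydrogenase complex to acetyl-CoA, the fuel of the TCA cycle and the donor for histone acetylation. The pentose phosphate pathway branches off after the first step of glycolysis and supplies NADPH and ribose. Quiescent MuSCs are known for low metabolic activity and a reliance on oxidative metabolism, and glycolysis increases when they are activated.

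Of the 40 tested genes, 6 differed between the groups, 3 lower and 3 higher in Taf4asKO. Hexokinase 1 (Hk1), enolase 1 (Eno1) and the mitochondrial isocitrate dehydrogenase Idh2 fell in the Taf4asKO libraries. Pfkfb3, Pdk4 and transketolase (Tkt) rose. A gene was called when limma gave an adjusted p (Benjamini-Hochberg, over all 18562 genes tested) under 0.05 and its level differed by 1.3 times or more, up or down. Of all genes tested, 12.6% were called, 6.71% lower and 5.93% higher. With 3 lower and 3 higher of 40, the enzymes were near this background in each direction. At an unadjusted p under 0.05 there were 15 of 40, where 28.8% of all genes tested were. The median log2 fold change of the 40 genes was -0.05, beside 0.004 over all genes tested. Changes are given on the scale of log2(value + 1), where the values are the authors' normalized counts.

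**Figure D1:**
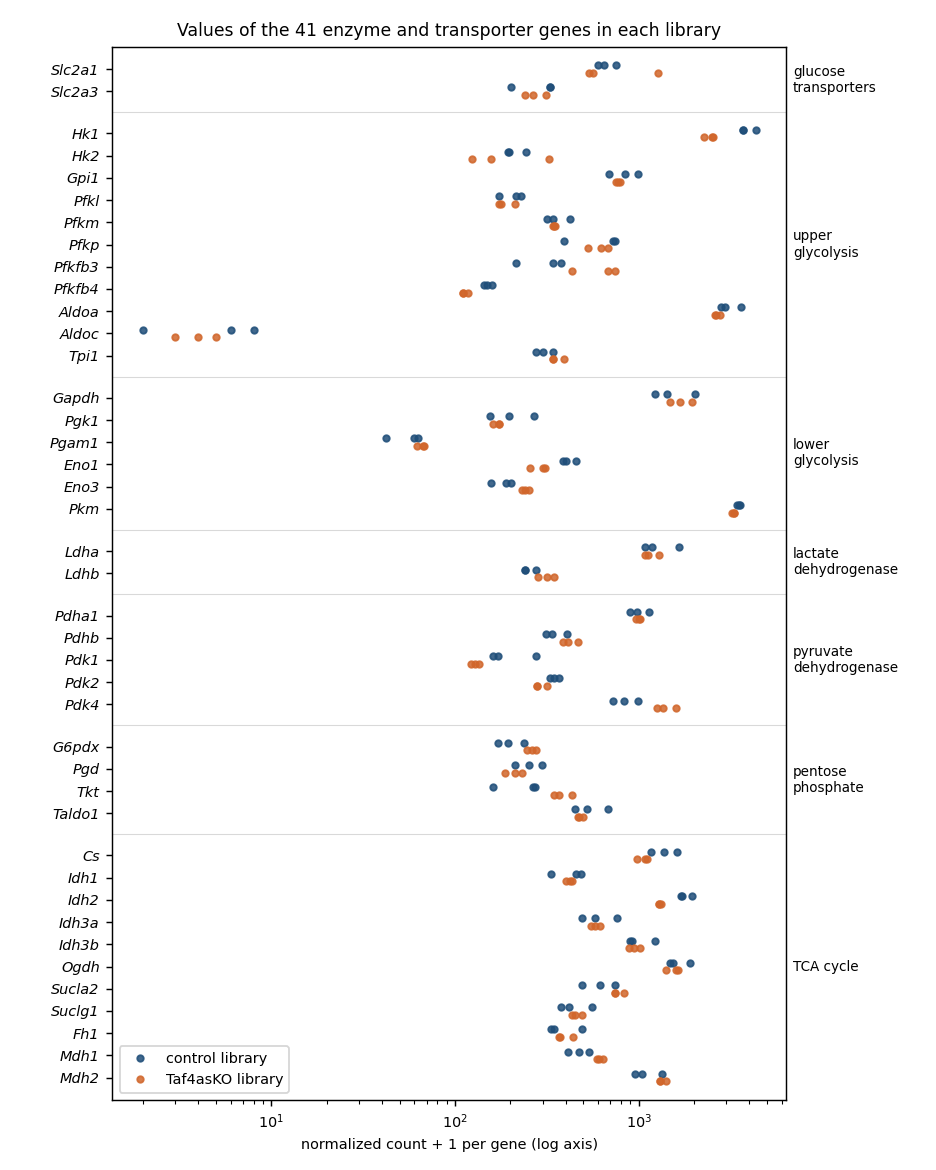
Normalized count plus 1 (log axis) of each of the 41 genes in each of the 3 control and 3 Taf4asKO libraries, grouped by pathway step; each point is 1 library. The groups do not overlap for Hk1, with 3690 to 4330 in control and 2270 to 2549 in Taf4asKO, whereas the points of most other genes mingle.

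Without overlap between the groups were 9 genes lower and 7 higher in Taf4asKO, among 40 tested. The corresponding shares of all genes were 16.4% lower and 16.6% higher. Per kilobase of exon, the means over control libraries were highest for Aldoa (1069.4 normalized counts per kilobase), Pkm (699.8), Idh2 (691.5) and Hk1 (457.9). The length was that of all annotated exons of a gene, and the order depends on this choice. Gapdh had 376.6 per kilobase over 4133 bases, whereas its longest coding transcript has 1420. The authors removed reads with several mapping positions, which lowers the level of genes with processed pseudogenes. Of all 75-base windows of the longest coding transcript, 80.3% also occur in another gene for Gapdh, 67.5% for Pgk1, 65.4% for Eno1 and 40.6% for Pgam1. Levels per kilobase of these 4 genes can therefore be underestimates, and their differences rest on the remaining sequence.

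The groups were checked against Taf4 and cell markers. Taf4 stood at 613, 534 and 478 normalized counts in control against 631, 565 and 574 in Taf4asKO (log2 fold change 0.13, adjusted p 0.524 by limma), and the groups overlapped. This total sums all exons and does not isolate the deleted pair, so it is no check of the deletion. All 12 MuSC markers were present, with Pax7 between 10363 and 13007, and 4 were lower (Myf5, Itga7, Cdh15, Megf10) and 3 higher (Vcam1, Sdc4, Heyl). The table holds no row for the defining leukocyte marker Ptprc, and Ly6a (SCA1) stayed between 2 and 14. Pecam1 (CD31) was at 31, 86 and 64 in control and 77, 80 and 142 in Taf4asKO (0.77, adjusted p 0.199). Summed Schwann cell markers were 1450 to 3705 in control and 4698 to 5793 in Taf4asKO, and 5 of 7 passed the threshold, all higher. Summed endothelial markers were 953 to 1455 and 1570 to 2109. None of the 10 passed with limma or limma-voom, although 7 had an unadjusted p under 0.05 (28.8% of all genes) and 4 passed, all higher, with a term for the replicate number (the replicate block). The 11 markers of fibro-adipogenic progenitors summed to 67665 to 97423 and 58090 to 82310, most of it Col1a1, Col3a1 and Gsn. Col3a1 was lower and Gsn higher, 7 were higher under the replicate block, and Pdgfra was at 49 to 152 in control and 160 to 247 in Taf4asKO. Mural cell markers summed to 25323 to 29564 and 25502 to 29945 (2 of 7 higher, 5 under the replicate block), the 5 leukocyte markers present to 444 to 551 and 676 to 933 (Cd74 lower, Lyz2 higher under the block), and myofibre markers to 8469 to 20149 and 10223 to 16619 (Atp2a1 lower, of 16, and Ryr1 higher under the block). Erythroid markers summed to 61 to 231 and 91 to 167, and of these 5 none passed with limma, limma-voom or at an unadjusted p under 0.05. The part of these cells in the results was not tested. In sorted bulk cells, fewer cells of a type and less RNA per cell cannot be told apart.

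The promoters of the 6 called genes are shown because TFIID, of which TAF4 is a subunit, works at promoters in general. Whether TAF4 binds at these 6 genes was not tested. The sequences are from RefSeq (GRCm38.p6, the build of the table), from 200 bases before to 20 bases after the start site, 5′ to 3′ on the strand of the gene. Capitals mark CCAAT, the letters of the core motif of NF-Y, on either strand. Which start was in use cannot be read from gene totals, so genes with separate RefSeq starts are shown with 2, and a further start of Eno1 that overlaps its downstream window is left out. The positions are chr10:62379889-62380108 and chr10:62340402-62340621 (minus strand) for Hk1, chr4:150236508-150236727 and chr4:150236997-150237216 (plus strand) for Eno1, chr7:80115331-80115550 (minus strand) for Idh2, chr2:11502071-11502290 and chr2:11553910-11554129 (minus strand) for Pfkfb3, chr6:5496259-5496478 (minus strand) for Pdk4, and chr14:30548931-30549150 (plus strand) for Tkt.
Hk1, upstream start: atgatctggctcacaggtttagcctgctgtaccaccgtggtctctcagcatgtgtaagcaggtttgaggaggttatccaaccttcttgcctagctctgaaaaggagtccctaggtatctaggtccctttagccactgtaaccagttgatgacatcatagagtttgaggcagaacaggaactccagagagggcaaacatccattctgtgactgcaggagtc
Hk1, downstream start: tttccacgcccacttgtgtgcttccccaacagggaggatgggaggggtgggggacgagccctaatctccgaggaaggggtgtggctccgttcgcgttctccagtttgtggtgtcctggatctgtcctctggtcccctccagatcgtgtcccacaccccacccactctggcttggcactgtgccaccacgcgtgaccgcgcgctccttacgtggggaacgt
Eno1, upstream start: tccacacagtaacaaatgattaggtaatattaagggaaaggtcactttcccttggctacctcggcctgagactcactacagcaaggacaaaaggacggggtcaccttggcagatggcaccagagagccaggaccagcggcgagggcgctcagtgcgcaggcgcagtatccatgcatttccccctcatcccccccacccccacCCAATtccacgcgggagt
Eno1, downstream start: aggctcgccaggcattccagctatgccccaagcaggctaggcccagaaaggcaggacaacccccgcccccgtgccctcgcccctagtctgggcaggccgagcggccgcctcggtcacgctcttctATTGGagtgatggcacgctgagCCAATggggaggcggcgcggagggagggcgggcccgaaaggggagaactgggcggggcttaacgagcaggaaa
Idh2: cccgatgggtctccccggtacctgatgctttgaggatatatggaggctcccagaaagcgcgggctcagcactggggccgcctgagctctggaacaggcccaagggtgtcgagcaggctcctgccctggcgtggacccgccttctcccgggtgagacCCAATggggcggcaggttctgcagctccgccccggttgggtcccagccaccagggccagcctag
Pfkfb3, downstream start: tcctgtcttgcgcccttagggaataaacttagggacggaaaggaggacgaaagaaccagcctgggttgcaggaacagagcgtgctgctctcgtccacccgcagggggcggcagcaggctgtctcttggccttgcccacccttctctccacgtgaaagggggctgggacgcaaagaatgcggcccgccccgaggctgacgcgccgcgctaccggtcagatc
Pfkfb3, upstream start: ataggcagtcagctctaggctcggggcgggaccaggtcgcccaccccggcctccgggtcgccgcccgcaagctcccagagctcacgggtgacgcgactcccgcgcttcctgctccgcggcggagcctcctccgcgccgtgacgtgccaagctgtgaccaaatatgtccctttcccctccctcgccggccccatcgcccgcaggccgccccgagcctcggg
Pdk4: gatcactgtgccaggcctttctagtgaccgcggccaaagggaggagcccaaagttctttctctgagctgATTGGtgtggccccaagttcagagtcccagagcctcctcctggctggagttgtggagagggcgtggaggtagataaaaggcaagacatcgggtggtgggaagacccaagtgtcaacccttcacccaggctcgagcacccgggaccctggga
Tkt: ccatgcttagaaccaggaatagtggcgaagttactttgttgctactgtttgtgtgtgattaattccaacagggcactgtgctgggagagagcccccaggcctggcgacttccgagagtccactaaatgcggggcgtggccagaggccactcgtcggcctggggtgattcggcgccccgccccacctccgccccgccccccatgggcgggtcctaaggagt

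CCAAT letters were in the windows of Eno1 and Idh2, which fell, and of Pdk4, which rose, and in neither window of Hk1 or Pfkfb3 nor in that of Tkt. The downstream start of Eno1 held 2 copies, with first bases at -75 and -53 from the start site, the upstream start 1 at 2, Idh2 1 at -44 and Pdk4 1 at -131. The 2 Eno1 starts shown lie 244 and 245 bases from the main start site in GENCODE, which neither window covers. The downstream Hk1 start lies 17941 bases from the nearest main start site in GENCODE, so not every start of Hk1 is shown. Shares of promoters with a motif were taken over all entries of the table (250 bases before to 50 after the start), of which 39 genes had 60, against all 32851 entries. The latter are of all genes, expressed here or not, and a gene may have several overlapping entries. CCAAT was in 30 of 60 entries, against 37.4% of all entries. GGGCGG, the core bound by Sp1, was in 36 of 60 against 35.7%. The hypoxia-response cores ACGTG and GCGTG were in 41.7% against 19.6% and in 61.7% against 32.4%, and CACGTG, an E-box that contains ACGTG, in 11.7% against 7.15%. GTAAACA, bound by FoxO factors, was in 1.67% against 3.65%, and TATAAA in 1.67% against 13.6%. Both strands were searched. All of these are matches of letters and not sites. Idh3a and Slc2a3 had no matching promoter entry.

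Glucose entry was examined first. The transporter Slc2a1 (GLUT1) stood at 644, 598 and 752 normalized counts in control and at 1271, 536 and 561 in Taf4asKO. Taf4asKO replicate 1 was far above the other 5 libraries and the other 2 of its group were below every control. The change of 0.13 on the log2 scale (SE 0.28, adjusted p 0.795) turned to -0.27 without this library. Slc2a3 (GLUT3) ranged from 202 to 330 in control and from 240 to 313 in Taf4asKO. Neither transporter passed the threshold with limma or limma-voom, and neither had an unadjusted p under 0.05.

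Upper glycolysis, in which glucose is phosphorylated and split, held the largest changes in both directions. Hk1, the hexokinase that traps glucose in most tissues and binds mitochondria, stood at 3701, 4330 and 3690 normalized counts in control and at 2501, 2549 and 2270 in Taf4asKO. The groups were far apart, and Hk1 fell by 0.68 on the log2 scale (SE 0.10, limma adjusted p 0.00267), to 0.626 of its control level. It kept its call whichever library was left out, at -0.72 to -0.60. Hk1 (ENSMUSG00000037012, chromosome 10, 62268855 to 62379908) shares 157 exonic bases with Hk1os on the opposite strand. Hk2, the inducible hexokinase of muscle, had 241, 193 and 196 in control and 325, 157 and 123 in Taf4asKO. As for Slc2a1, Taf4asKO replicate 1 was the highest of all libraries and the other 2 the lowest (log2 fold change -0.18, SE 0.30, adjusted p 0.741), and without this library the log2 fold change was -0.58 (adjusted p 0.105, range over all alternatives 0.105 to 0.943). Per kilobase of exon Hk2 was at 35.2 in control, against 457.9 for Hk1.

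Pfkfb3 makes fructose 2,6-bisphosphate, the activator of phosphofructokinase. Its normalized counts were 214, 339 and 376 in control and 431, 682 and 739 in Taf4asKO. All Taf4asKO libraries were above all control libraries, although replicate 1 was the lowest of its group on both sides. Pfkfb3 (ENSMUSG00000026773, chromosome 2, 11471433 to 11554077) rose by 1.0 on the log2 scale (SE 0.24, limma adjusted p 0.0245), to 1.99 times its control level. The call was lost without control replicate 1 (0.75, adjusted p 0.052), Taf4asKO replicate 2 (0.90, 0.108) or Taf4asKO replicate 3 (0.85, 0.107), whereas the adjusted p under the replicate block was 0.000149, the range over all alternatives being 0.000149 to 0.108. Its paralog Pfkfb4, which makes the same product, had 158, 142 and 148 in control and 109, 109 and 117 in Taf4asKO. These groups did not overlap, but the log2 fold change of -0.42 (SE 0.15, adjusted p 0.097) did not pass.

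The other genes of upper glycolysis did not pass. Aldoa, the muscle aldolase, stood at 2798, 3604 and 2937 normalized counts in control and at 2754, 2598 and 2640 in Taf4asKO, without overlap but with a log2 fold change of only -0.22 (adjusted p 0.224). A second row of this symbol, for another Ensembl gene just upstream, had between 9 and 29. The phosphofructokinase subunits Pfkl, Pfkm and Pfkp, glucose-6-phosphate isomerase (Gpi1) and triosephosphate isomerase (Tpi1) had log2 fold changes between -0.13 and 0.23, all with overlapping groups. Among the phosphofructokinases Pfkm was the highest per kilobase of all annotated exons in control (107.9), above Pfkp (46.3) and Pfkl (30.7). This order depends on the length used. The exons of Pfkp sum to 13401 bases and its longest coding transcript has 4145, against 3340 and 2879 for Pfkm. In normalized counts the control mean of Pfkp was higher (620, against 360.3 for Pfkm). Aldolase C (Aldoc), at 1, 7 and 5 in control and 2, 3 and 4 in Taf4asKO, was too low to be tested. In sum over the 11 genes, upper glycolysis had 9361 to 10935 normalized counts in control and 8184 to 8462 in Taf4asKO. Hk1 and Aldoa make up most of that sum.

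**Figure D2:**
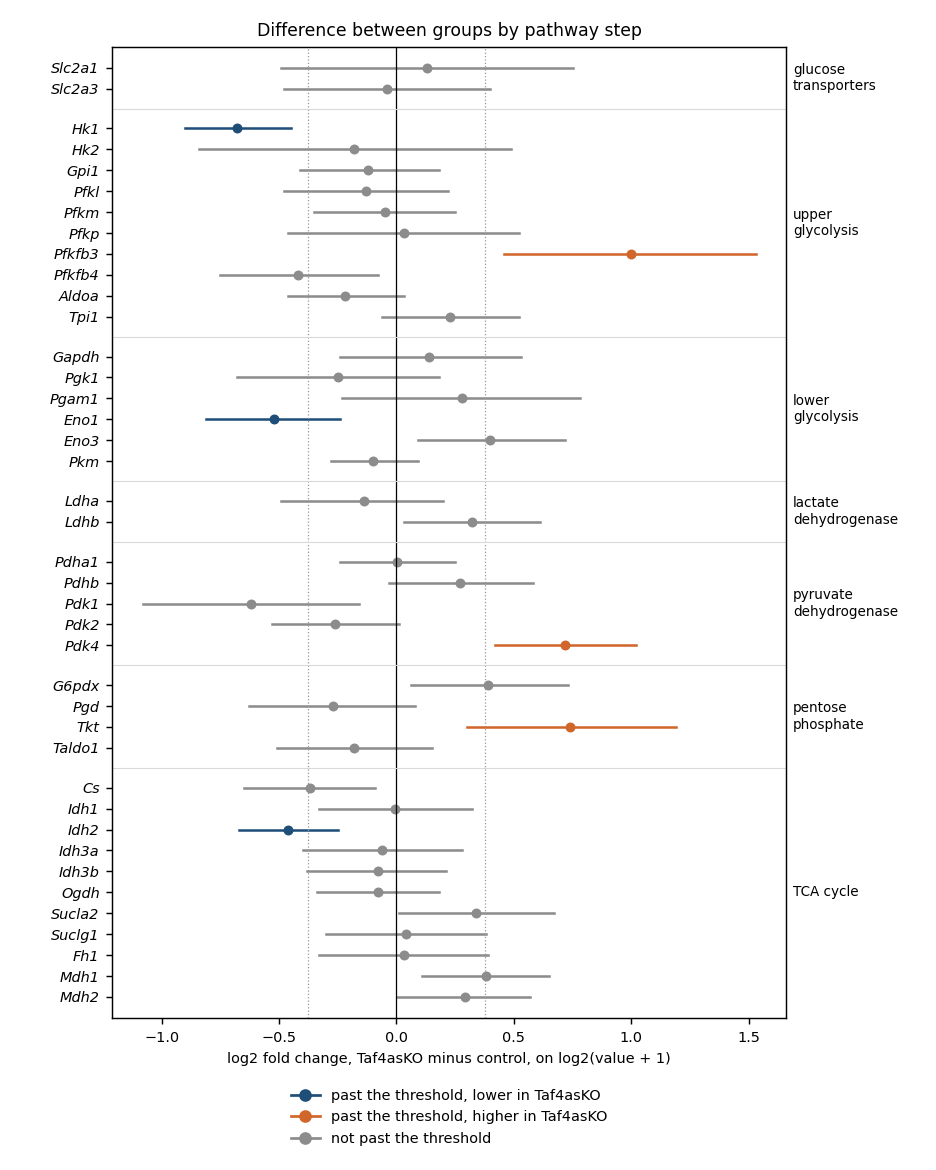
Log2 fold change (Taf4asKO minus control, on log2(value + 1)) of the 40 tested genes with 95% confidence intervals from limma, by pathway step; dotted lines mark the fold limit of 1.3. Hk1, Eno1 and Idh2 lie to the left (-0.68, -0.52 and -0.46) and Pfkfb3, Pdk4 and Tkt to the right (1.0, 0.72 and 0.74).

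Lower glycolysis converts triose phosphates to pyruvate. Eno1, the ubiquitous enolase, stood at 453, 384 and 402 normalized counts in control and at 308, 300 and 255 in Taf4asKO. Every Taf4asKO library was below every control library, and Eno1 (ENSMUSG00000063524, chromosome 4, 150236952 to 150248879) fell by 0.52 on the log2 scale (SE 0.13, limma adjusted p 0.0256). The call was lost without control replicate 1 (-0.45, adjusted p 0.0798) and without each Taf4asKO library (-0.57, -0.55 and -0.44, adjusted p 0.0553, 0.084 and 0.127 for replicates 1 to 3). Over all alternatives the adjusted p ran from 0.0113 to 0.127. Eno3, the enolase of mature muscle, had 157, 189 and 202 in control and 232, 239 and 251 in Taf4asKO, also without overlap, but its log2 fold change of 0.40 (SE 0.14, adjusted p 0.0922) did not pass. With 65.4% of its windows shared with other genes, Eno1 rests on the remaining part of its transcript, whereas Eno3 shares none.

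Pyruvate kinase (Pkm), which closes glycolysis, was even across libraries. It stood at 3434, 3564 and 3501 normalized counts in control and at 3287, 3213 and 3303 in Taf4asKO. The groups did not overlap, yet the difference was small (log2 fold change -0.10, SE 0.08, adjusted p 0.475), with an interval from -0.28 to 0.09. Gapdh, often used as a reference gene, ranged from 1232 to 2014 in control and from 1472 to 1942 in Taf4asKO. Pgk1 had 155 to 268 and 161 to 172, and Pgam1 41 to 62 and 61 to 67. Log2 fold changes of these 3 genes lay between -0.25 and 0.28, and none passed.

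Lactate dehydrogenase joins pyruvate and lactate. Ldha, the subunit of glycolytic tissue, stood at 1179, 1649 and 1075 normalized counts in control and at 1283, 1121 and 1075 in Taf4asKO (log2 fold change -0.14, adjusted p 0.581). Ldhb, the subunit of oxidative tissue, had 240, 275 and 238 and then 283, 344 and 314, without overlap (0.32, SE 0.13, adjusted p 0.141). Neither passed, although Ldhb was under an unadjusted p of 0.05, and limma-voom called neither.

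Conversion of pyruvate to acetyl-CoA in the mitochondrial matrix is carried out by the pyruvate dehydrogenase complex, which pyruvate dehydrogenase kinases switch off by phosphorylation. Pdk4, the kinase induced by fasting and fatty acids, stood at 728, 833 and 993 normalized counts in control and at 1589, 1362 and 1256 in Taf4asKO. The groups were clearly apart, and Pdk4 (ENSMUSG00000019577, chromosome 6, 5483351 to 5496309) rose by 0.72 on the log2 scale (SE 0.13, limma adjusted p 0.0076), to 1.65 times its control level. Pdk4 kept its call with any library left out, at 0.62 to 0.84. The other kinases among the 41 genes had negative values, whereas Pdk3, from a list of neighbouring genes and named after its value was seen, had 0.29 and did not pass. Pdk1, a target of the hypoxia-inducible factor, had 170, 160 and 276 in control and 121, 127 and 134 in Taf4asKO, a log2 fold change of -0.62 (SE 0.21). It did not pass (limma adjusted p 0.0796), but passed under the replicate block (0.0275) and without control replicate 2 (-0.76, adjusted p 0.0378), with a range over all alternatives of 0.0275 to 0.205. Pdk2 had 326, 346 and 368 and then 314, 277 and 278 (-0.26, adjusted p 0.186). The catalytic subunit genes Pdha1 and Pdhb had log2 fold changes of 0.0014 (interval -0.24 to 0.25) and 0.27 (-0.03 to 0.58). With the block, 4 of the 40 enzymes were lower and 3 higher, against 8.98% and 9.09% of all genes.

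**Figure D3:**
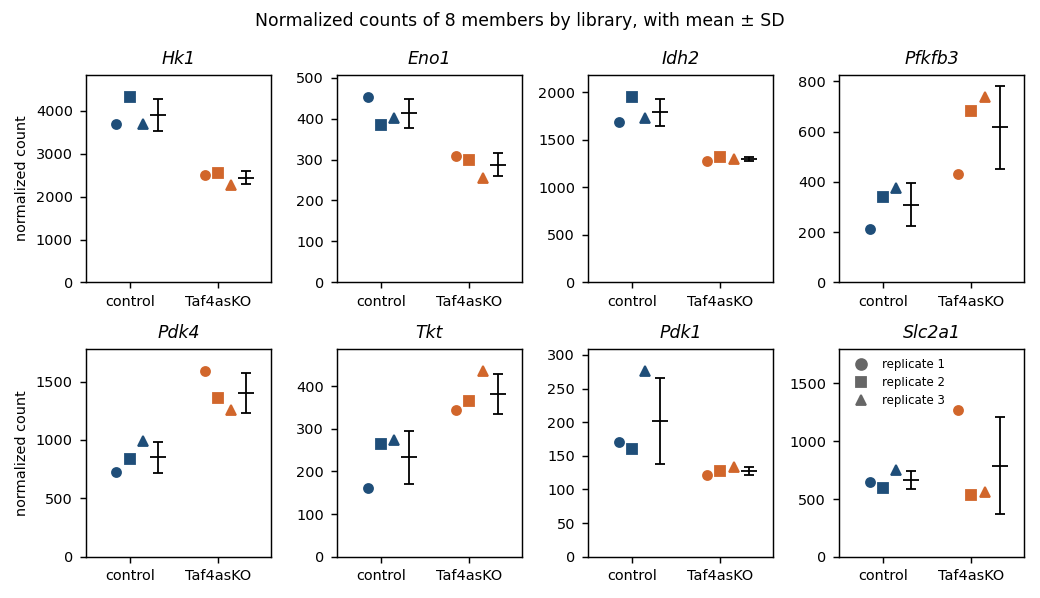
Normalized counts of the 6 called genes and of Pdk1 and Slc2a1 in each library (circles, squares and triangles for replicates 1, 2 and 3), with mean ± SD (n = 3) beside the points; axes start at 0. For Slc2a1 the mean of Taf4asKO is raised by replicate 1 alone (1271, against 536 and 561).

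In the pentose phosphate pathway, 1 of 4 genes passed, where 12.6% of all genes did. Tkt, which returns pentoses to glycolysis, stood at 161, 264 and 273 normalized counts in control and at 345, 365 and 435 in Taf4asKO. All Taf4asKO libraries were higher than all control libraries. Tkt (ENSMUSG00000021957, chromosome 14, 30549131 to 30574720) rose by 0.74 on the log2 scale (SE 0.20, limma adjusted p 0.0371), to 1.67 times its control level. Without control replicate 1, its lowest library, the value was 0.50 (adjusted p 0.0639), and without Taf4asKO replicates 1, 2 and 3 it was 0.81, 0.77 and 0.65 (0.0795, 0.109 and 0.15), none of which passed. The range over all alternatives was 0.00438 to 0.15. G6pdx, the rate-limiting enzyme of the pathway, had 170, 237 and 193 and then 246, 263 and 274. Its groups did not overlap (0.39, SE 0.15, adjusted p 0.117), and it passed only without control replicate 2 (0.52, adjusted p 0.0243, range 0.0243 to 0.313). Pgd, the second producer of NADPH, and Taldo1, which works beside Tkt, had log2 fold changes of -0.27 and -0.18 with overlapping groups. G6pdx shares 418 exonic bases with Ikbkg on the opposite strand, and whether counting used the strand is not given in the sources used here.

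In the TCA cycle 1 of 11 genes passed, where 12.6% of all genes did. Idh2, the mitochondrial NADP-dependent isocitrate dehydrogenase, stood at 1690, 1953 and 1726 normalized counts in control and at 1283, 1319 and 1296 in Taf4asKO. The Taf4asKO libraries lay within a narrow band below all controls, and Idh2 (ENSMUSG00000030541, chromosome 7, 80094846 to 80115392) fell by 0.46 on the log2 scale (SE 0.09, limma adjusted p 0.012), to 0.728 of its control level. The value was -0.47 without Taf4asKO replicate 2 and -0.46 without replicate 3, but the adjusted p was then 0.0614 and 0.0628, with a range over all alternatives of 0.00495 to 0.0628. Idh1, its cytosolic counterpart, had 334, 457 and 486 and then 401, 424 and 432 (-0.0048, interval -0.33 to 0.32). The NAD-dependent Idh3a and Idh3b were at -0.06 and -0.08, with overlapping groups. Citrate synthase (Cs), which opens the cycle, had 1366, 1614 and 1164 in control and 1085, 1111 and 982 in Taf4asKO. These groups did not overlap (-0.37, SE 0.13), but Cs missed the fold limit and the limit on p (adjusted p 0.0825). It passed without control replicate 3 (-0.49, adjusted p 0.0307) and under 2 other scalings, the adjusted p ranging from 0.0209 to 0.262.

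The remaining enzymes of the cycle did not pass. Ogdh, Suclg1 and Fh1 had log2 fold changes of -0.08, 0.04 and 0.03. Both malate dehydrogenases, which also carry reducing equivalents between cytosol and mitochondria, had positive values. The cytosolic Mdh1 stood at 410, 538 and 474 normalized counts in control and at 595, 635 and 606 in Taf4asKO, without overlap (0.38, SE 0.12, adjusted p 0.0703). Mdh2 had 1038, 1332 and 950 and then 1410, 1302 and 1299 (0.29, adjusted p 0.173), and Sucla2, the ATP-forming subunit of succinyl-CoA ligase, 617, 743 and 488 and then 834, 739 and 738 (0.34, adjusted p 0.163). All 3 passed without control replicate 2, at 0.47, 0.43 and 0.49 (adjusted p 0.0186, 0.0159 and 0.031). Over all alternatives the adjusted p ranged from 0.0186 to 0.233 for Mdh1, from 0.0159 to 0.404 for Mdh2 and from 0.031 to 0.401 for Sucla2.

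Control replicate 2 was the highest control for 26 of the 41 genes (63.4%, against 41.3% of all genes tested). Its normalized total was also the highest of the controls (14551732, against 12338676 and 12937494). It had the highest sum of myofibre markers (20149, against 9873 and 8469), and the part of myofibre RNA in these values was not tested. The spread on the log2 scale was larger in control than in Taf4asKO for 36 of 41 genes (87.8%, against 68.3% of all genes), with median SDs of 0.241 and 0.101. Without control replicate 2, 11 genes passed, the 6 named above with Pdk1 lower and G6pdx, Sucla2, Mdh1 and Mdh2 higher, and 16.6% of all genes were called. Without control replicate 1 there were 3 (9.24% of all genes called). Without control replicate 3 there were 7, with Cs added. Without Taf4asKO replicates 1, 2 and 3 there were 4, 2 and 2, when 6.72%, 5.25% and 5.14% of all genes were called. Hk1 lower and Pdk4 higher were called in each of these 6 fits.

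To follow the balance between related enzymes within a library, 12 ratios were formed. A ratio within a library does not depend on its scaling, apart from the 1 added to each value. With 3 against 3 libraries the smallest p of the exact permutation test (two-sided) is 0.1, so no ratio could reach 0.05. Without overlap between groups were 4 ratios, each with an exact p of 0.1 (0.3 after adjustment over the 12). For single genes, the shares without overlap were 16.4% of all genes lower and 16.6% higher. Each of these 4 ratios holds a called gene (Pfkfb3, Eno1, Pdk4 or Idh2), so they are not separate from those calls. The log2 ratio of Pfkfb4 to Pfkfb3 was -1.01 ± 0.50 in control and -2.42 ± 0.39 in Taf4asKO (SD, n = 3). That of Eno3 to Eno1 was -1.18 ± 0.30 and -0.25 ± 0.20. Pdk4 to Pdk2 was 1.28 ± 0.14 and 2.27 ± 0.09. Idh1 to Idh2 was -2.08 ± 0.25 and -1.63 ± 0.05. Among the other 8, Ldhb to Ldha differed by 0.46 (exact p 0.2) and Hk2 to Hk1 by 0.50 (exact p 0.4), where Taf4asKO replicate 1 stood at -2.94 and the others at -4.01 and -4.19. Pfkm and Pfkp to Pfkl and Mdh1 to Mdh2 differed by 0.08 to 0.16, within the spread of the libraries. With same-numbered libraries taken as pairs, 7 of the 12 ratios differed in one direction in all 3 pairs. These were the 4 above, Hk2 to Hk1 and Ldhb to Ldha, which were higher in Taf4asKO, and Pdk1 to Pdk2, which was lower. The smallest p of an exact permutation within pairs is 0.25.

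**Figure D4:**
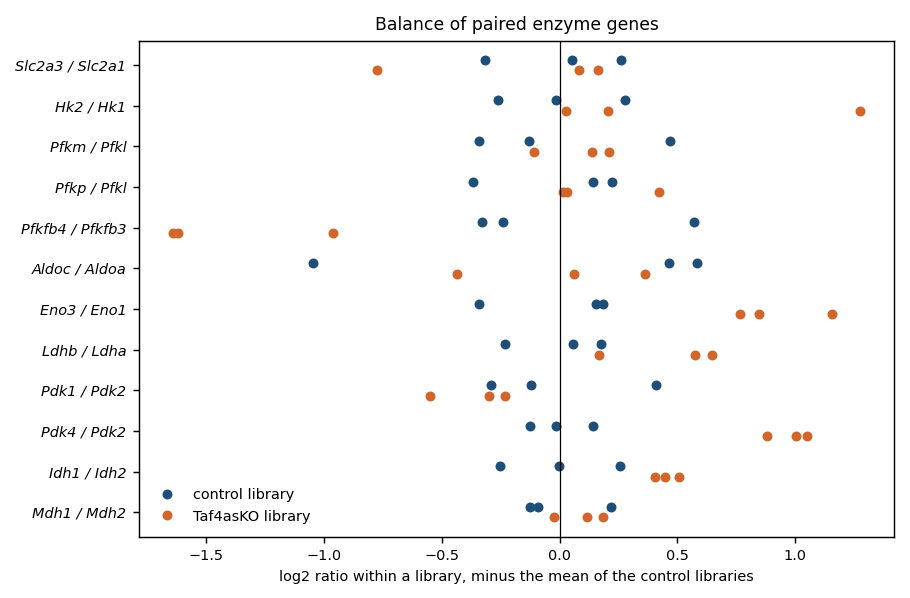
Log2 ratio of 2 related genes within each library, minus the mean of the control libraries, for 12 pairs; each point is 1 library. The Taf4asKO points of Pfkfb4 / Pfkfb3 lie to the left of all control points, those of Eno3 / Eno1, Pdk4 / Pdk2 and Idh1 / Idh2 to the right, and Taf4asKO replicate 1 stands alone for Hk2 / Hk1; Aldoc / Aldoa rests on single-digit counts of Aldoc.

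The neighbouring genes of these pathways were taken from 7 further lists of 134 genes, of which 127 were tested. Of these, 5 were lower and 16 higher (10 and 23 under the replicate block), against 6.71% and 5.93% of all genes (8.98% and 9.09% under the block), with a median log2 fold change of 0.20. Around pyruvate, the mitochondrial malic enzyme Me3, which makes pyruvate from malate, stood at 315, 334 and 263 normalized counts in control and at 65, 75 and 42 in Taf4asKO. It fell the most of these 127 genes (-2.34, SE 0.22, limma adjusted p 0.00025). The phosphatase gene Pdp2, whose product switches pyruvate dehydrogenase back on, fell from 431, 618 and 515 to 275, 238 and 230 (-1.06, SE 0.15, adjusted p 0.00212). Both were far outside the range of the control libraries. Mpc1 and Mpc2, the mitochondrial pyruvate carrier, did not pass (0.39 and 0.45), but Mpc2 did without control replicate 2 (0.58, adjusted p 0.0222, range 0.0222 to 0.298). Of the 14 tested genes of this list 2 were lower and 1, Dlat (0.52), was higher.

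Among other genes of sugar uptake and lactate, 1 was lower and 3 higher of 23 tested (2 and 5 with the block). The transporter Slc2a12 (GLUT12) fell from 570, 582 and 651 normalized counts to 315, 362 and 314 (-0.86, SE 0.12, limma adjusted p 0.00161). Slc16a3 (MCT4), the lactate exporter of glycolytic cells, rose from 169, 91 and 140 to 375, 222 and 226 (1.04, SE 0.26, adjusted p 0.028). That call was lost under total-count scaling, without control replicate 2 (0.79, adjusted p 0.0515) and without each Taf4asKO library (0.79, 1.17 and 1.15, adjusted p 0.106, 0.0603 and 0.0604 for replicates 1 to 3), with a range of 0.00113 to 0.106 over all alternatives. Slc16a1 (MCT1) had -0.02 and Tigar, which lowers fructose 2,6-bisphosphate, 0.21, neither past the threshold. Bpgm (0.69) and Adpgk (0.43) were the other genes of this list that rose without the block.

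Of 10 other pentose phosphate genes 1 was lower and 1 higher (1 and 3 with the block). H6pd, the enzyme that runs the first steps of the pathway in the endoplasmic reticulum, fell from 1415, 1631 and 1871 normalized counts to 1004, 1100 and 1150 (-0.59, SE 0.12, limma adjusted p 0.0109). The call of H6pd was lost without Taf4asKO replicate 1 (-0.53, adjusted p 0.0524) or 2 (-0.60, 0.0534), within a range of 0.00135 to 0.0534 over all alternatives. Prps1, which makes phosphoribosyl pyrophosphate from the ribose of the pathway, was the gene that rose without the block (0.65). In the list of other TCA cycle genes 1 of 19 rose and none fell (1 higher and 1 lower with the block). The gene that rose was Glud1, which feeds glutamate into the cycle (0.45, limma adjusted p 0.0203). Its call was lost without any 1 of control replicates 1 and 3 and the Taf4asKO libraries, at 0.39 to 0.48. Sdha, a subunit of succinate dehydrogenase, with 1794, 2255 and 1906 and then 2393, 2678 and 2436 normalized counts, did not pass (0.34, adjusted p 0.0669) except without control replicate 2 (0.43, adjusted p 0.0137, range 0.0137 to 0.254). Of 17 tested glycogen and gluconeogenesis genes 2 rose, the branching enzyme Gbe1 (0.59, adjusted p 0.00737, 0.0504 without Taf4asKO replicate 3, range 0.00441 to 0.0504) and Phkb (0.43). None was lower with limma, but 7 had an unadjusted p under 0.05 (28.8% of all genes), 1 was lower with limma-voom and 3 under the replicate block. Dlat, Bpgm, Adpgk, Prps1 and Phkb were named after their values were seen, as the remaining called genes of these lists. Their adjusted p values were close to the limit, at 0.0468, 0.0355, 0.0423, 0.0304 and 0.0292 by limma. Each of these 5 calls was lost in every fit that left out 1 library except the fit without control replicate 2. Over these 6 fits the log2 fold changes ranged from 0.42 to 0.70 for Dlat, 0.60 to 0.87 for Bpgm, 0.36 to 0.51 for Adpgk, 0.53 to 0.77 for Prps1 and 0.39 to 0.48 for Phkb.

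**Figure D5:**
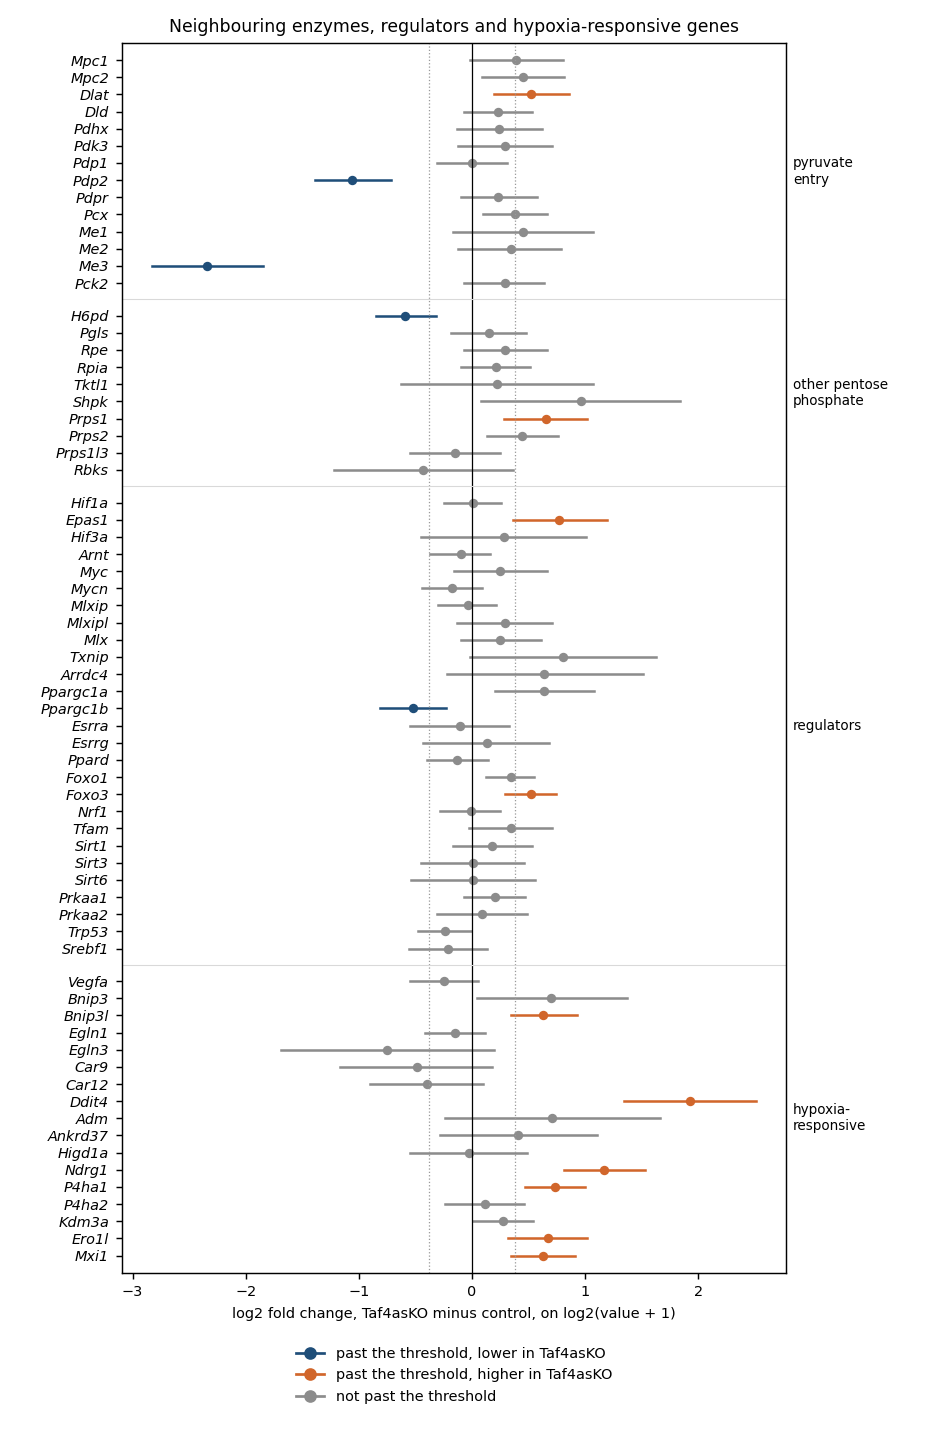
Log2 fold change (Taf4asKO minus control) with 95% confidence intervals from limma for tested genes of pyruvate entry, other pentose phosphate genes, regulators and other hypoxia-responsive genes; dotted lines mark the fold limit of 1.3. Me3 (-2.34) and Ddit4 (1.93) lie farthest out, Hif1a sits at 0.01 and 6 hypoxia-responsive genes are called, all to the right.

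The regulators of these enzymes gave 1 lower and 2 higher of 27 (1 and 5 with the block). Of all genes, 6.71% were lower and 5.93% higher (8.98% and 9.09% with the block). Hif1a, the hypoxia-inducible factor that drives many glycolytic genes, had 850 to 886 normalized counts in control and 801 to 1023 in Taf4asKO (0.01, interval -0.25 to 0.26). Epas1, which encodes the related HIF-2alpha, rose from 661, 1122 and 1086 to 1411, 1697 and 1679 (0.77, SE 0.19, adjusted p 0.0236), a call that was lost without any 1 of the Taf4asKO libraries (0.86, 0.73 and 0.73, adjusted p 0.0519, 0.102 and 0.0932, range 0.000889 to 0.102). Endothelial cells also express Epas1, and their summed markers are given above. Foxo3, a factor of quiescence whose family is known to induce Pdk4, rose from 1952, 2073 and 2010 to 2645, 2778 and 3238 (0.52, SE 0.10, adjusted p 0.00954). Without Taf4asKO replicate 3 its adjusted p was 0.0578, in a range of 0.00292 to 0.0578. Ppargc1b, a coactivator of mitochondrial genes, fell by 0.52 (adjusted p 0.0278), and lost its call under total-count scaling and without any 1 library other than control replicate 2, at -0.59 to -0.42. Myc had 1362 to 1822 in control and 1459 to 2489 in Taf4asKO and did not pass (0.25).

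Txnip, which limits glucose uptake and is induced by glucose, differed between replicate numbers. Its normalized counts were 1121, 2310 and 2959 in control and 1996, 4666 and 4384 in Taf4asKO. Replicate 1 was the lowest library of both groups, and the groups overlapped. The change of 0.80 on the log2 scale (SE 0.37) did not pass (adjusted p 0.185 by limma), but passed under the replicate block (0.000365), the range over all alternatives being 0.000365 to 0.468.

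Of 17 other hypoxia-responsive genes, 6 rose, where 5.93% of all genes did, and none fell, with a median log2 fold change of 0.41 beside 0.004 for all genes. This list leaves out the 41 genes, although Hif1a drives many glycolytic genes. Among the genes so left out, Pdk1 had -0.62, Eno1 -0.52, Ldha -0.14, Slc2a1 0.13 and Pfkfb3 1.0. A response to hypoxia was not tested. Ddit4, an inhibitor of mTORC1 that also responds to other stresses, rose from 231, 332 and 332 normalized counts to 826, 947 and 1802 (1.93, SE 0.26, limma adjusted p 0.00173). Ndrg1 rose from 1358, 1113 and 1851 to 3318, 3191 and 3019 (1.17, SE 0.16, adjusted p 0.00174). Both groups were far apart for these genes, and Taf4asKO replicate 3 was the highest for Ddit4. P4ha1, a collagen prolyl hydroxylase, rose by 0.73 (adjusted p 0.00408), Mxi1, a Myc antagonist, by 0.63 (0.012), Bnip3l, a mitophagy receptor, by 0.63 (0.0133) and Ero1l, an oxidase of the endoplasmic reticulum, by 0.67 (0.0222). Calls were lost for Ero1l without control replicate 3 (0.53, adjusted p 0.0505) or any Taf4asKO library (0.63, 0.65 and 0.73, adjusted p 0.0861, 0.102 and 0.0655), for Bnip3l without Taf4asKO replicate 2 (0.58, 0.0783) or 3 (0.65, 0.0573), and for Mxi1 without Taf4asKO replicate 2 (0.58, 0.0726). Over all alternatives the adjusted p ranged from 0.00742 to 0.102 for Ero1l, from 0.00226 to 0.0783 for Bnip3l and from 0.00471 to 0.0726 for Mxi1. The other 11 genes of the list did not pass and ranged from -0.75 for Egln3 to 0.71 for Adm, both named after their values were seen.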

How the data were processed

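RNA of sorted MuSCs was sequenced (3 control and 3 Taf4asKO libraries, from 10 ng of RNA each, per the labels, with a stranded low-input kit and single-end reads). Per the study's methods and the submitters' processing notes, the authors trimmed reads with Trimmomatic 0.39, aligned them to mm10 with STAR 2.6.0c, removed reads with several positions, counted with featureCounts 1.6.0 and normalized with DESeq2 1.14.1. The deposited values are a score: normalized counts rounded to whole numbers. The read depth of each library is not given in the sources used here, and normalized totals were 12338676 to 14551732. Libraries of a group differed beyond sampling noise (chi-square per gene 4.17 to 46.6), so none was merged. Value columns without a sample numbered 0.

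Genes with a mean of at least 5 were tested with limma 3.58.1 (R 4.3.3; lmFit and eBayes with trend) on log2(value + 1). The test was two-sided and had no covariate. Alternatives were the replicate block, 3 other scalings, limma-voom applied to the deposited values, pseudocounts of 0.1 and 5, no filter, a mean of at least 50, other limits and leaving out each library. Same-numbered libraries deviated together (correlations across genes of 0.235, 0.126 and 0.15, against -0.149 to 0.0141 for other pairs). Deviations cancel within each group, so other pairs tend to be negative when same-numbered pairs are positive. The numbers, which come from the sample titles, were therefore taken as pairs only in the replicate block and in the paired ratios. The main test does not use the pairing. Ratios were tested by exact permutation (scipy 1.17.1). Of the table's gene IDs, 99.8% were in GENCODE M21, which gave exon lengths, overlaps and the 75-base windows. Promoters of 39 genes were matched by symbol in RefSeq, with every entry used for the motif shares. Figures used matplotlib 3.10.9.

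All 41 genes are named, and of the neighbouring lists up to 15 called genes with the smallest p, with Hif1a, Myc, Txnip, Tigar, Slc16a1, Slc16a3, Mpc1, Mpc2, Sdha and H6pd whether called or not. Of that rule 1 further gene is not reported here. The genes and lists were chosen with earlier results of these data known.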

Additional observations from a re-analysis of the deposited data

How the results depend on the processing

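Of the 40 tested genes 6 passed, and the number stayed at 6 or 7 with the replicate block, other scalings, limma-voom, other pseudocounts and other filters. It was 0 (0 lower, 0 higher) at a fold limit of 2 and 2 (1 lower, 1 higher) with an adjusted p under 0.01, and 2 to 11 (1 to 4 lower, 1 to 7 higher) when 1 library was left out, the most without control replicate 2. Of the neighbouring list genes 21 passed, 5 lower and 16 higher. The number was 33 (10 lower) with the replicate block, 5 (2 lower, 3 higher) at a fold limit of 2 and 8 (3 lower, 5 higher) with an adjusted p under 0.01. Lower genes were 8 under upper-quartile scaling and 8 under scaling without ribosomal, mitochondrial and the 100 most abundant genes. Over the fits that left out 1 library it was 8 to 29 (3 to 5 lower, 4 to 24 higher). Stricter limits call fewer genes by construction, and the cause of the other differences was not tested. The median of -0.05 lay between -0.10 and 0.06 over the left-out libraries. The block added Pdk1 among the enzymes and Txnip among the other genes named by rule, and changed no other call among the 65 genes so named. It also added cell type markers, among them Lyz2 and Pdgfra.

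Ratios without overlap numbered 4, and 4 to 6 when 1 library was left out. That number does not use the pairing and is also 4 with the replicate block, whereas 7 ratios differed in one direction in all 3 pairs. Aldoc over Aldoa was 0.02 with a pseudocount of 0.1. Among 1170 values of 65 named genes under the alternatives, 72 calls were lost, 12 were gained and 35 changed sign. Sign changes were at values near 0 or with 1 library left out. Pdha1 was -0.02 and Hif1a -0.02 under upper-quartile scaling, and -0.02 and -0.01 under scaling without ribosomal, mitochondrial and top 100 genes. When 1 library was left out, Aldoc over Aldoa ranged from -0.53 to 0.28, Fh1 from -0.07 to 0.21, Gapdh from -0.01 to 0.35, Gpi1 from -0.25 to 0.01, Hif1a from -0.11 to 0.07, Hk2 from -0.58 to 0.11, Idh1 from -0.17 to 0.10, Idh3a from -0.20 to 0.12, Idh3b from -0.16 to 0.06, Ldha from -0.27 to 0.04, Ogdh from -0.15 to 0.03, Pdha1 from -0.08 to 0.10, Pfkm from -0.14 to 0.07, Pfkm over Pfkl from -0.09 to 0.32, Pfkp from -0.27 to 0.18, Pfkp over Pfkl from -0.03 to 0.27, Slc16a1 from -0.25 to 0.21, Slc2a1 from -0.27 to 0.35, Slc2a3 from -0.28 to 0.08, Slc2a3 over Slc2a1 from -0.34 to 0.12, Suclg1 from -0.08 to 0.20. The depth of each library is not given in the sources used here, and low genes such as Aldoc limit what can be compared.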
